A study of Homo sapiens with 18 samples.

Results

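The response to SYK knockdown was compared between EBC-1, a lung cancer line with MET amplification, and a pair of lung cancer lines with an EGFR exon 19 deletion, PC-9 and HCC827. In each line, cells with an shRNA that targets SYK, shSYK, were set against negative control cells, nc, and RNA was sequenced from 3 libraries of each of the 6 groups. The shRNA was 1 clone delivered by lentivirus, so an effect of SYK loss and an effect particular to that clone cannot be told apart, and with 1 line against 2 neither can MET amplification and other features of EBC-1. What the nc cells carried is not given in the sources used here. The labels number the libraries as replicates without saying that they came from separate cultures, so the p-values measure the spread between these libraries, which may be technical.

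The measurements were FPKM (fragments scaled to gene length and to a total of the library), and they were analysed as log2(FPKM + 1). The response of a line was the mean of its shSYK libraries minus the mean of its nc libraries on that scale. The quantity tested was the response in EBC-1 minus the average response of PC-9 and HCC827, called the difference from here on, in one limma fit of all 18 libraries. The genes were those whose mean FPKM reached 1 in every line, 10030 of 58302, of which 9159 were protein-coding. That mean covered nc and shSYK libraries together, so a gene could pass in a line through 1 group alone. Genes named below that did so in at least 1 line included AXL, LFNG, LTB, PI3, PTX3, S100A8, SAA2, SPP1, SPRR1B, TRIB2 and VIM. A response or a difference was counted as called where its Benjamini-Hochberg adjusted p over the 10030 genes was under 0.05, and only called responses are described as a rise or a fall.

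SYK is a cytoplasmic tyrosine kinase that passes signals from immune receptors inward, and in epithelial tumours it has been linked to the epithelial state. MET and EGFR are receptor tyrosine kinases that drive the growth of the lines in which they are amplified or mutated, and they share the RAS and ERK, PI3K and STAT pathways. The programmes compared below include the unfolded protein response of the endoplasmic reticulum (ER), which raises chaperone genes when unfolded protein accumulates, and transcription by YAP with TEAD factors, which rises when cells spread and adhere.

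All 3 lines had the epithelial marker EPCAM, with a library FPKM between 58.9 and 121. The squamous markers did not mark EBC-1, a line derived from a squamous carcinoma: TP63 lay between 0 and 0.131 and KRT5 at 0 in its 6 libraries, while SOX2 was detected in each. The adenocarcinoma marker NKX2-1 was between 37.6 and 55.7 in HCC827 and between 1.18 and 2.09 in PC-9. Some markers moved with knockdown in single lines. In PC-9, KRT5 was between 17.6 and 23.5 in nc and between 136 and 140 in shSYK cells, and the endothelial gene PECAM1 between 12.7 and 14.4 in nc and between 4.28 and 5.34 in shSYK cells. In HCC827, the summed FPKM of 3 adenocarcinoma markers was between 140 and 143 in nc and between 85.7 and 95.1 in shSYK cells. Whether these markers had a part in the differences below was not tested, and in bulk RNA fewer cells of a type and less RNA per cell cannot be told apart. The summed FPKM of 5 leukocyte and 6 fibroblast markers stayed at or under 1.67 and 8.37 in every library, with PTPRC, COL3A1, DCN and LUM at or near 0. The libraries held between 7920099 and 15729103 reads on genes. The PC-9 nc group was the most variable, with a limma array weight of 0.28 against 0.97 to 1.49 in the other groups. Its replicates 1 and 2 deviated from the group mean in opposite directions over genes (r = -0.92, where deviations around a mean of 3 libraries are negatively correlated by construction), and replicate 2 deviated with EBC-1 nc replicate 2 (r = 0.63). Leaving out replicate 1 moved the counts the most, so they are also given without it.

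The targeted gene fell in each line. In EBC-1, SYK had an FPKM of 15.1, 13.1 and 14.4 in the nc libraries and 7.63, 7.25 and 7.41 in the shSYK libraries. In PC-9, it had 7.31, 6.04 and 6.17 in nc and 2.28, 1.64 and 2.35 in shSYK. In HCC827, the values were 9.05, 8.45 and 9.745 in nc and 2.46, 3.16 and 3.36 in shSYK. The shSYK libraries were below the nc libraries of their own line without overlap. The response of SYK was -0.85 for EBC-1, -1.29 for PC-9 and -1.34 for HCC827 on the log2(FPKM + 1) scale, and the difference was 0.46 (standard error 0.13, limma adjusted p = 0.0157), so the fall was smaller in EBC-1. Against PC-9 alone, the difference in SYK was 0.44 and not called (limma adjusted p = 0.0511). The knockdowns compared were therefore unequal, and the part of this inequality in the results below was not tested.

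The response to knockdown differed between EBC-1 and the EGFR-mutant lines for 2511 of the 10030 genes (25%), 1333 higher in EBC-1 (13.3%) and 1178 lower (11.7%). Knockdown itself changed 4545 genes in EBC-1 (45.3%, with 24.5% up and 20.9% down), 1022 genes of PC-9 (10.2%, with 4.89% up and 5.3% down) and 2630 of HCC827 (26.2%, with 11.9% up and 14.3% down). The largest class of differences held 1434 genes that changed in EBC-1 with no call in the average of the other lines, 57.1% of the 2511. A further 402 genes (16%) were called in the average and not in EBC-1, 344 (13.7%) were called in both in the same direction with unequal sizes, and 62 (2.47%) were called in neither. The remaining 269 genes, 10.7% of the differences and 2.68% of the genes tested, were called in both with opposite signs. A difference of at least 1 on the log2 scale was found for 192 genes, 56 higher and 136 lower in EBC-1. Without PC-9 nc replicate 1, 3929 genes differed and 404 were opposite.

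**Figure D1:**
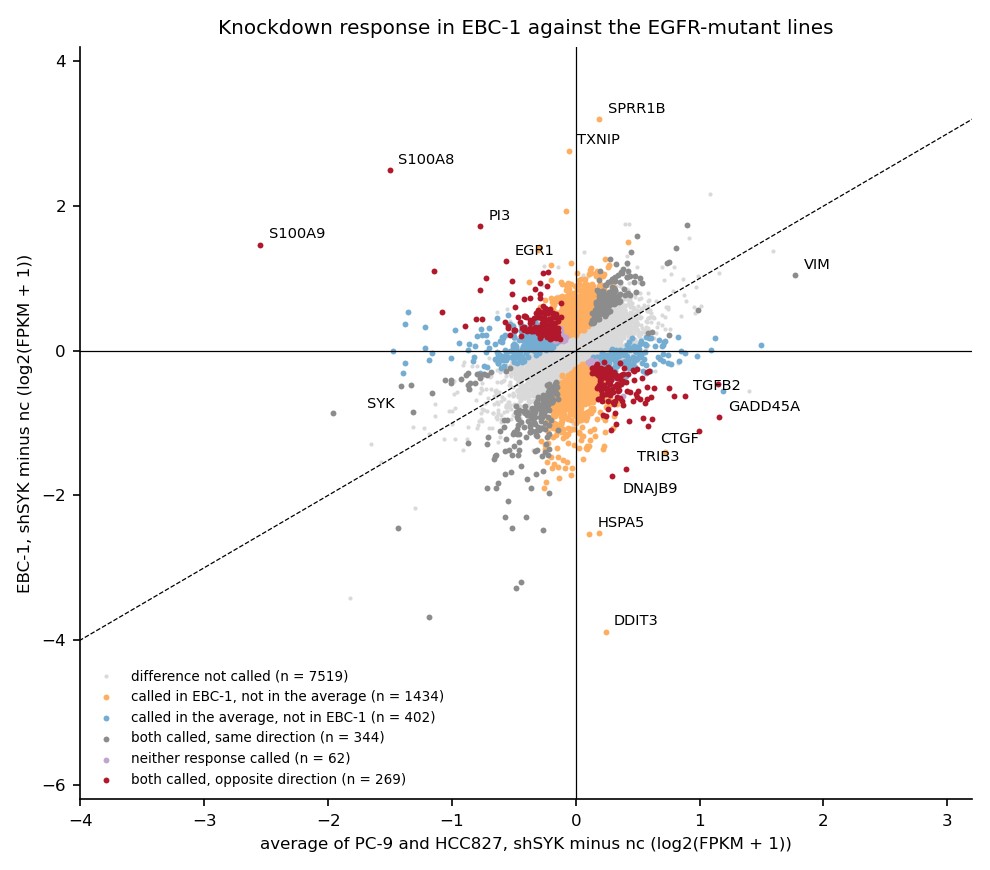
Each point is 1 of 10030 genes, with the average response of PC-9 and HCC827 on the x axis and the response of EBC-1 on the y axis, both as shSYK minus nc in log2(FPKM + 1); colours give the class and the dashed line marks equal responses. S100A8, S100A9 and PI3 lie at the upper left, higher with knockdown in EBC-1 and lower in the average, and GADD45A, CTGF and TGFB2 at the lower right, while DDIT3 and HSPA5 lie low near an average response of 0.

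Across the 10030 genes, the responses of EBC-1 and of the average, which share no library, had a Pearson correlation of 0.41. Between single lines it was 0.34 for EBC-1 with PC-9, 0.37 for EBC-1 with HCC827 and 0.47 for PC-9 with HCC827. These are descriptions across genes, which are not independent replicates and share length, base composition and a denominator within each library. The genes higher in EBC-1 had a median GC content of 45.2% and those lower a median of 54.8%, against 50.2% over all genes tested. With trends on length and GC content removed within each library, 3434 genes differed, 1611 higher and 1823 lower in EBC-1, 506 were opposite, and 161 of the 269 remained opposite. The balance of differences called higher and lower in EBC-1 depended on the scale. The 269 opposite genes each kept the sign of their difference on every scale given next. The summed FPKM of a library was between 267243 and 280477 in EBC-1 nc and between 247177 and 253541 in EBC-1 shSYK cells, and rescaling each library to an equal sum moved the median difference of all genes by 0.10 and the share higher in EBC-1 from 53.1% to 69.5%. The share was 63.4% by limma-voom on recovered reads and 50.4% after quantile normalization.

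Of the 269 genes with opposite responses, 134 rose in EBC-1 and fell in the average (1.34% of the genes tested) and 135 fell in EBC-1 and rose in the average (1.35%). The responses of PC-9 and HCC827 had the same sign for 239 of them and differed from each other for 48 (over all genes 5.1% did, 2.95% higher in PC-9 and 2.15% lower). In PC-9 93 were called and in HCC827 176 (10.2% and 26.2% of all genes). These genes were chosen by a call in the average, which itself favours equal signs and calls in the single lines. The 239, 93 and 176 are therefore descriptions. The stricter count, in which PC-9 and HCC827 were each called against EBC-1, held 48 genes (0.479%), 27 that rose in EBC-1 and 21 that fell. The shSYK and nc libraries did not overlap in any of the 3 lines, with EBC-1 opposite to both others, for 137 genes (1.37%). The genes named next are the largest of the stricter count in each direction.

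S100A8, which forms the antimicrobial and inflammatory protein calprotectin with S100A9, rose in EBC-1 and fell in both other lines. Its FPKM in EBC-1 was 1.30, 1.18 and 1.52 in nc and 11.5, 11.6 and 13.3 in shSYK cells. In PC-9 it was 76.7, 70.8 and 78.85 in nc and 49.2, 41.7 and 38.6 in shSYK. In HCC827 it was 5.64, 3.05 and 3.69 in nc and 0, 0.0935 and 0.182 in shSYK, where at most 2 reads lay on the gene, under the floor of 3 reads taken for detection. The groups did not overlap in any line. The difference was 3.99 (standard error 0.17, limma adjusted p = 6.94e-10). S100A9 rose from 128, 108 and 125 to 325, 330 and 346 in EBC-1. In HCC827 it fell from 349, 313 and 461 to 6.07, 16.8 and 20.6, and in PC-9, where its FPKM was between 1583 and 2250, the response of -0.36 was not called (difference 4.01, standard error 0.33, limma adjusted p = 6.17e-07).

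TRIB2, a pseudokinase of the tribbles family, had an FPKM between 2.21 and 2.66 in EBC-1 nc and between 3.77 and 4.31 in EBC-1 shSYK cells. It fell in PC-9, from between 22.03 and 24.1 to between 16.8 and 18.04, and in HCC827, from between 5.08 and 5.88 to between 0.764 and 1.12. The difference in TRIB2 was 1.62 (standard error 0.10). EIF4EBP2, a repressor of cap-dependent translation, showed responses of nearly equal size in the EGFR-mutant lines. Its values in EBC-1 were 10.46, 10.97 and 12.99 in nc and 16.1, 16.7 and 14.6 in shSYK cells. Its values fell from between 28.1 and 29.2 to between 16.4 and 16.6 in PC-9 and from between 16.1 and 17.25 to between 8.43 and 9.20 in HCC827. SGK1, a serum- and glucocorticoid-regulated kinase, and NRP2, a co-receptor for semaphorins and VEGF, followed the same pattern with differences of 1.23 and 1.19. In the order EBC-1, PC-9, HCC827, the responses were 0.34, -0.54 and -1.25 for SGK1 and 0.44, -0.58 and -0.93 for NRP2.

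In the other direction, GADD45A, a stress-induced gene of growth arrest and DNA repair, had the largest difference of the 21 genes that fell in EBC-1 under the stricter count. Its FPKM in EBC-1 was 86.4, 87.03 and 71.95 in nc and 42.7, 40.8 and 44.6 in shSYK cells. In PC-9 it rose from 43.42, 40 and 41.58 to 119, 113 and 131. In HCC827 it rose from 28.6, 30.1 and 28.7 to 54.1, 49.9 and 50.9. The groups did not overlap in any line, and the shSYK libraries of EBC-1 lay at the level of the nc libraries of PC-9. The difference was -2.08 (standard error 0.10, limma adjusted p = 1.13e-09). TGFB2, a ligand of the TGF-beta receptors, fell from between 5.76 and 7.90 to between 3.53 and 4.27 in EBC-1 and rose from between 2.72 and 3.97 to between 7.22 and 10.4 in HCC827. PLAU, the urokinase plasminogen activator, fell in EBC-1 from between 480 and 544 to between 311 and 363, and rose in PC-9 from between 37.9 and 43.7 to between 56.8 and 60.45. LTB, a membrane-bound cytokine of the TNF family, and HIST3H2A, a histone H2A gene, had differences of -1.61 and -1.55. Few reads lay on LTB in HCC827 nc cells, 5 to 9 in each library.

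**Figure D2:**
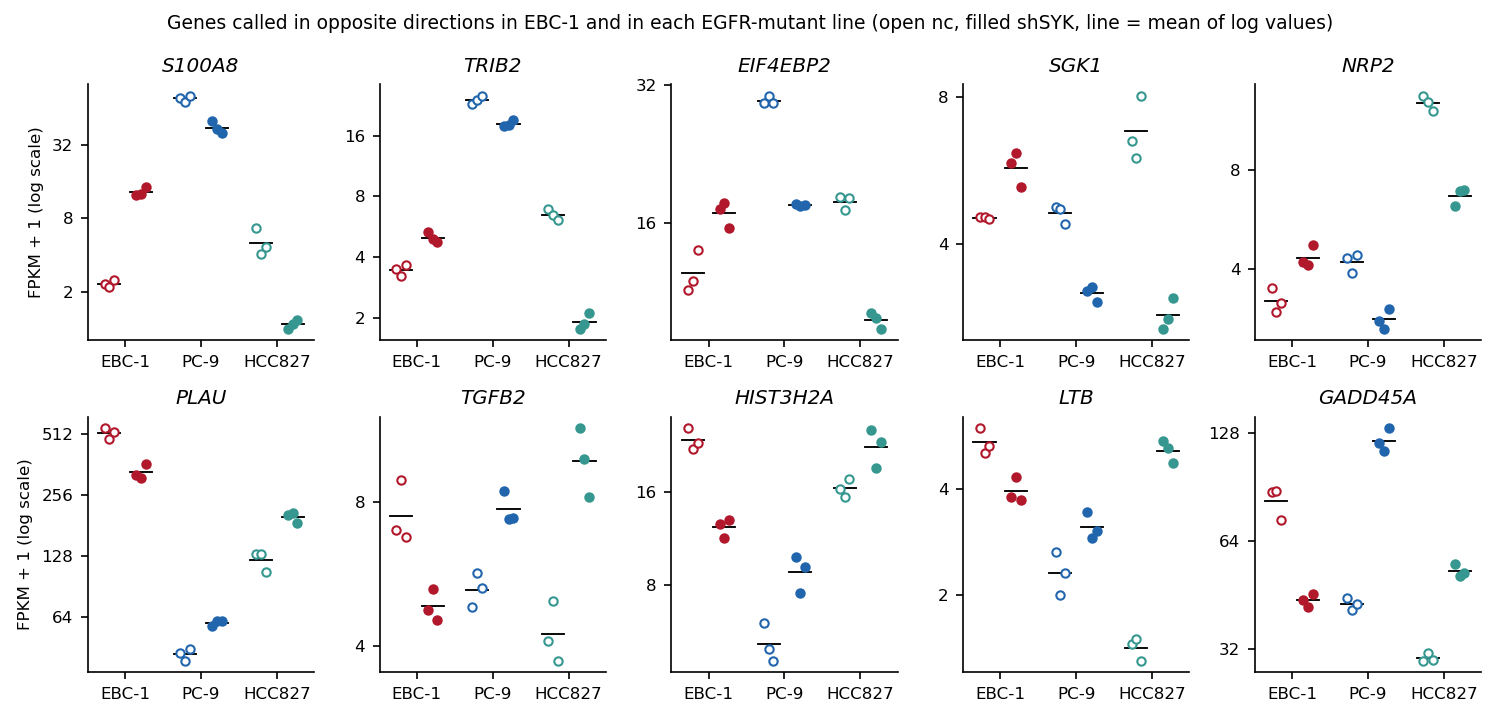
FPKM + 1 of each library on a log scale for the 10 genes with the largest differences among those called in opposite directions in EBC-1 and in each of PC-9 and HCC827; open circles are nc, filled circles shSYK, and short lines the mean of the log values of 3 libraries. In the upper row the filled circles of EBC-1 lie above its open circles and those of PC-9 and HCC827 below, and in the lower row the reverse holds.

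The genes with the largest opposite differences outside that stricter count were mostly opposite in 1 of the EGFR-mutant lines. PI3, the protease inhibitor elafin, rose in EBC-1 from 14.3, 11.3 and 16.9 to 47.55, 49.5 and 48.4 and fell in HCC827 from 4.32, 4.57 and 5.63 to 0.347, 0.978 and 0.635, the last on 2 to 6 reads a library. In PC-9, PI3 had an FPKM between 484 and 848 with a response of 0.29 that was not called. The acute-phase gene SAA2, the immediate early transcription factor EGR1, the secreted phosphoprotein SPP1, PDZK1IP1, a partner of PDZ-domain transport regulators, and MALL, a proteolipid of membrane rafts, likewise rose in EBC-1 and fell in HCC827, with differences between 1.31 and 2.24 and no call in PC-9. SAA2 is nearly identical to SAA1 over its exons, so the division of reads between them is uncertain. Among those lower in EBC-1, the adhesion molecule MCAM, the kinesin KIF3C and C11orf68 rose in HCC827 with no call in PC-9. FLNC, an actin-crosslinking filamin, fell in PC-9 as in EBC-1 (responses of -0.40 and -1.10) and rose in HCC827 (0.97).

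The ER chaperones were the list with the highest share of differences. Of 21 chaperone and ER quality-control genes tested, 17 (81%) had a difference called lower in EBC-1 and none higher, against 11.7% and 13.3% of all genes. The median response over the list was -1.09 for EBC-1, 0.08 for PC-9 and -0.16 for HCC827, and the median difference was -0.77, against 0.03 over all genes tested. In EBC-1, 18 of the 21 fell and SEC61B, a subunit of the translocon, rose, against 20.9% and 24.5% of all genes. In PC-9 1 rose and none fell (4.89% and 5.3% of all genes), and in HCC827 8 fell and none rose (14.3% and 11.9%). HSPA5, which encodes the ER chaperone BiP, had an FPKM of 1072, 1602 and 1004 in EBC-1 nc and 198, 204 and 219 in EBC-1 shSYK cells. It was between 162 and 189 in PC-9 nc, 191 and 234.5 in PC-9 shSYK, 195 and 201 in HCC827 nc and 182 and 202 in HCC827 shSYK cells. The nc libraries of EBC-1 thus stood above all others, and its shSYK libraries lay within the range of the other lines, with the caution that the 3 tables were scaled separately. The difference in HSPA5 was -2.63 (standard error 0.16, limma adjusted p = 2.29e-08).

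HERPUD1, which acts in the degradation of ER proteins, fell in EBC-1 from 128, 149 and 107 to 20.02, 21.47 and 22.72, while its values in the other lines stayed between 5.99 and 10.55 (difference -2.70). SDF2L1, MANF, PDIA4, CRELD2, HYOU1 and SYVN1 had responses between -2.49 and -1.29 in EBC-1. DNAJB9, an ER co-chaperone that restrains the sensor IRE1, was the 1 member with an opposite response. It fell in EBC-1 from 30.1, 39.7 and 25.01 to 8.27, 8.08 and 9.615 and rose in PC-9 from 2.77, 3.21 and 2.94 to 5.08, 5.36 and 3.92. In HCC827 its response of 0.06 was not called. For 19 of the 21 chaperones EBC-1 nc was the group with the highest mean, as it was for 20.5% of all genes tested, and for all 21 the gap between EBC-1 and the mean of the other lines was smaller in shSYK than in nc cells (52.0% of all genes). The median gap in log2(FPKM + 1) was 1.59 in nc and 0.55 in shSYK cells. The gaps and the difference are computed from the same libraries, so they are one description and not separate evidence.

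The promoters of these genes are shown because the ER stress element, to which ATF6 and NF-Y bind, lies in some of them. The element was searched as CCAAT followed after any 9 bases by CCACG, on both strands, in windows from 250 bases before to 50 after the start given by RefSeq (GRCh38.p14). It was found in 6 of the 20 chaperone promoters matched (30.0%), those of HSPA5, CRELD2, HSP90B1, CALR, XBP1 and CANX, in 0.142% of the promoters of tested genes and in 0.0769% of the 35116 promoters in the table. A match is a description of the letters and not a binding site. The window of HSPA5 is chr9:125241294-125241593 on the minus strand and that of CRELD2 chr22:49918384-49918683 on the plus strand, both written in the direction of transcription with the match in capitals, which in CRELD2 reads on the opposite strand.
HSPA5: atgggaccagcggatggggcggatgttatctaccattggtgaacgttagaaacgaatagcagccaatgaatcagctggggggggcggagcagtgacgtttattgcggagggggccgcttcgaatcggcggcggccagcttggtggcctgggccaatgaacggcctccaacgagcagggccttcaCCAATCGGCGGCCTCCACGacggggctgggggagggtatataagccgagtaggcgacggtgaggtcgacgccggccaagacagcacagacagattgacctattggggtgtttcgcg
CRELD2: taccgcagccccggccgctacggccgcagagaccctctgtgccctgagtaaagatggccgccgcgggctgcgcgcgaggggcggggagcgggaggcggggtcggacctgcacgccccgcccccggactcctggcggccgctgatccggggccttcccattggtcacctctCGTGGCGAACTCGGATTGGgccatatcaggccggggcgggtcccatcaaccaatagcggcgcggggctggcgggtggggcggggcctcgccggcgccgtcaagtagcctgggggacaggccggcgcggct

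The amino acid response genes regulated by ATF4, a transcription factor translated under ER stress and amino acid shortage, fell in EBC-1 for 22 of 31 members and rose for 2, against 20.9% and 24.5% of all genes. This list is described because its values were seen to be large. The difference was lower in EBC-1 for 16 members and higher for ATF5 (54.8%, against 25% of all genes). Against HCC827 alone, 10 members differed in place of 17. The count also moved where a mean FPKM of 5 was required in each table. The median responses were -0.74, 0.10 and -0.13 in EBC-1, PC-9 and HCC827. DDIT3, which encodes the stress factor CHOP, had the largest difference of all genes named here, at -4.13 (standard error 0.19, limma adjusted p = 6.94e-10). Its FPKM was 179, 189 and 145 in EBC-1 nc and 9.77, 10.1 and 12.1 in EBC-1 shSYK cells. In PC-9, it rose from 3.63, 3.94 and 4.24 to 6.04, 7.19 and 5.29, and in HCC827 it lay between 8.09 and 12.8 in both groups. TRIB3, a pseudokinase that is induced by CHOP and ATF4, was opposite. It fell in EBC-1 from between 137 and 150 to between 41.7 and 48.6 and rose in PC-9 from between 19.99 and 29.9 to between 37.5 and 44.6. The amino acid transporter SLC7A5 fell by 1.29, 1.29 and 2.01 on the log2 scale in EBC-1, PC-9 and HCC827, and its difference was not called. The ATF4 motif, searched on both strands as TGATG followed after any base by AAT, was found in 0 of the 26 promoters matched of this list and in 0.438% of those of tested genes. At that share, 0 of 26 would be usual for any list, so no conclusion is drawn from it.

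**Figure D3:**
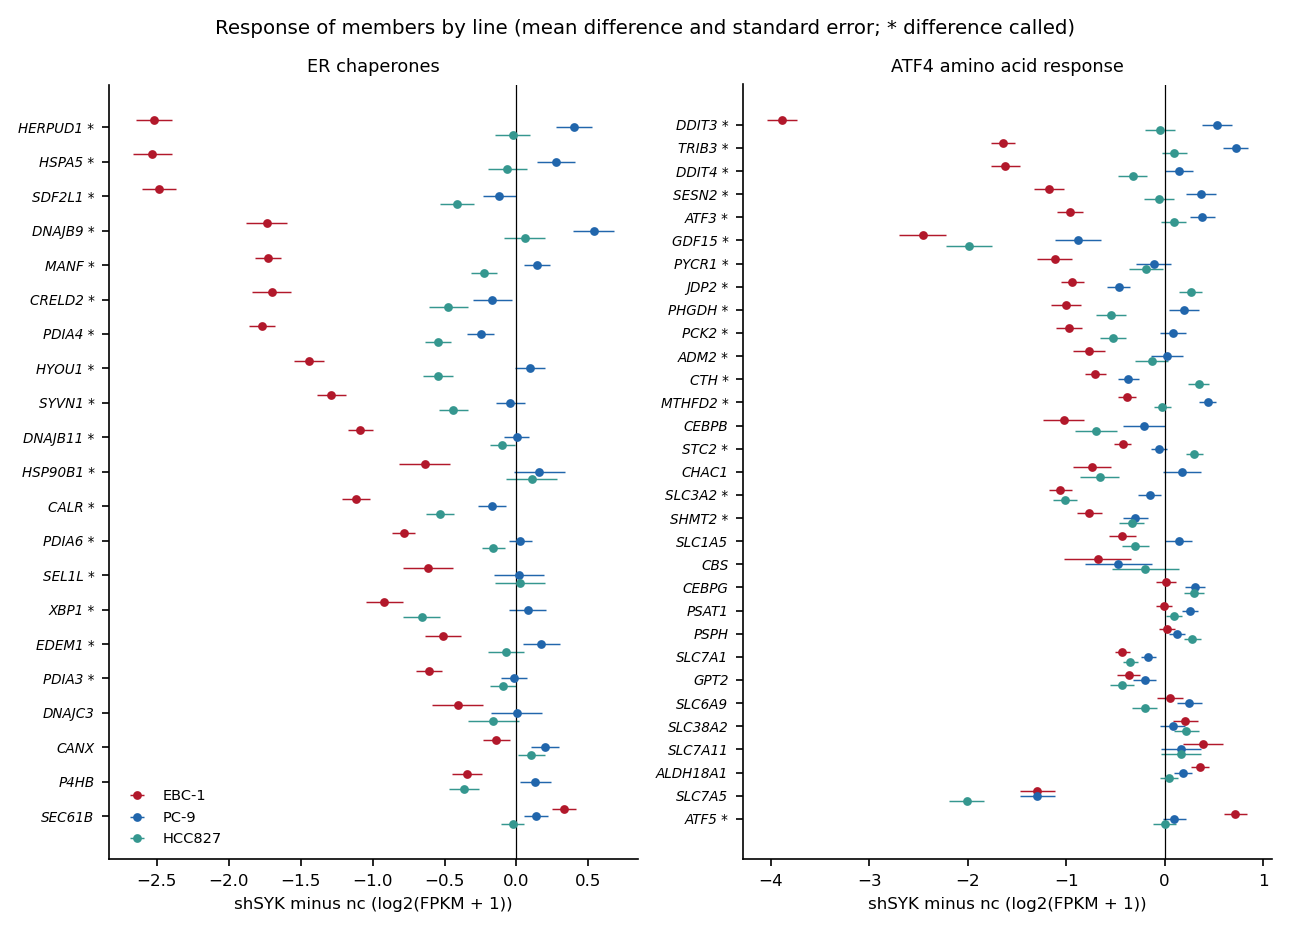
The response of every tested member of the ER chaperone and ATF4 lists, as shSYK minus nc in log2(FPKM + 1). Points are EBC-1 (red), PC-9 (blue) and HCC827 (green), with 3 libraries per group. Bars are the standard error of the fit, pooled over the 6 groups and so equal in the 3 lines for a gene. An asterisk marks a called difference. The red points of HERPUD1, HSPA5 and SDF2L1 lie near -2.5 and that of DDIT3 at -3.88, away from the blue and green points.

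Many YAP target genes and mesenchymal genes had a lower response in EBC-1. Of 20 YAP targets, 11 differed downward and 1, NT5E, upward (60% in all, against 25% of all genes). The 5 opposite members included GADD45A, described above, CTGF and TGFB2. Requiring a mean FPKM of 5 in each table, which removed CTGF, left 7 members that differed in place of 12. The count also moved with PC-9 alone as comparator. The median response was -0.17 for EBC-1, 0.10 for PC-9 and 0.54 for HCC827, and 13 members rose in HCC827 and 3 in PC-9, where 11.9% and 4.89% of all genes did. CTGF, a matricellular protein used as a readout of YAP, fell in EBC-1 from 7.84, 7.41 and 7.32 to 2.99, 3.40 and 3.02. It rose in HCC827 from 1.18, 1.38 and 0.675 to 4.62, 3.98 and 4.07. In PC-9 it was between 2.44 and 3.64 and not called, and the responses of PC-9 and HCC827 differed by -1.52 (limma adjusted p = 4.52e-05). CYR61, its close relative, fell in EBC-1 from between 65 and 67.86 to between 34.2 and 36.9 and rose in HCC827 from between 289 and 432 to between 459 and 592. ANKRD1, a cardiac ankyrin repeat protein, rose in HCC827 by 2.13 and was not called in EBC-1 (0.18) or PC-9 (0.12). AXL, a receptor kinase linked to resistance to EGFR inhibitors, fell in EBC-1 from between 62.1 and 67.3 to between 40.8 and 46.02 and rose in HCC827 from between 0.378 and 0.842 to between 1.42 and 2.04. In HCC827 it passed the filter only through its shSYK libraries, and each nc library held 21 to 51 reads on it.

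Of 16 mesenchymal genes, 8 differed downward and SERPINE2 upward (56.2%, against 25% of all genes). The median response was -0.06 for EBC-1, 0.17 for PC-9 and 0.34 for HCC827. Requiring a mean FPKM of 5 in each table removed members, LTBP2 among them. Over those left, the EBC-1 median was 0.13 and 2 differed in place of 9, so these counts have unlike totals. Vimentin (VIM) rose in the 3 lines, from between 3.53 and 3.71 to between 7.56 and 9.83 in EBC-1, from between 0.837 and 0.867 to between 2.56 and 2.92 in PC-9 and from between 1.33 and 2.17 to between 13.5 and 17.8 in HCC827. Its difference of -0.73 (limma adjusted p = 0.00164) came with a response of 2.53 in HCC827, and against PC-9 alone it was 0.026 and not called. LTBP2, a matrix protein that binds microfibrils, fell in EBC-1 from between 7.31 and 9.80 to between 2.52 and 4.305 and was called in neither other line. TPM1 and FN1, which encode tropomyosin and fibronectin, rose in PC-9 and HCC827 with responses of 0.13 and 0.09 in EBC-1 that were not called. The TGF-beta signalling list, named after its values were seen, had 8 of 20 members lower and 3 higher in EBC-1. That was 55% of the list, against 25% of all genes.

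The TEAD motif GGAATG was held by 42.9% of the 14 YAP target promoters matched, against 10.3% of the promoters of tested genes and 14.03% of all promoters. It was also held by 15.2% of the 99 promoters of opposite genes lower in EBC-1 and by 6.86% of the 102 of those higher, but also by 31.25% of the 16 promoters of the keratin and S100 list, of which more members were higher in EBC-1. Among promoters with the motif, those of CTGF and TGFB2 count in both the YAP list and the opposite genes. TGFB2 is also in the mesenchymal and TGF-beta lists. A list defined by a factor may hold its motif by that definition, here and for the other lists, so these shares are descriptions and not evidence on the responses. The windows of 2 opposite members are shown with every match in capitals, on either strand. They are chr6:131951323-131951622 on the minus strand for CTGF, with 3 matches, and chr1:218345086-218345385 on the plus strand for TGFB2, with 1.
CTGF: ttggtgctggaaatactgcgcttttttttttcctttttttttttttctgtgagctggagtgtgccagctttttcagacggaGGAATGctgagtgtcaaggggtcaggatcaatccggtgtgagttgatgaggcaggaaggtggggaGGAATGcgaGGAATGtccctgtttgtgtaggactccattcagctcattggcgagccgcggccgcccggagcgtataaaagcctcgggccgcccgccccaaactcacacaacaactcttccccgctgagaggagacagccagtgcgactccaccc
TGFB2: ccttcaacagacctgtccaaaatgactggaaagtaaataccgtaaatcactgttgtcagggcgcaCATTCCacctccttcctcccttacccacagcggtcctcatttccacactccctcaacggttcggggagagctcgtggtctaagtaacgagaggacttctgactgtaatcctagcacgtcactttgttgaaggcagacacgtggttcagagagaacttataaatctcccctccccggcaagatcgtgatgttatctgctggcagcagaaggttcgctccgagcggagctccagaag

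Cholesterol synthesis and uptake genes also differed downward in EBC-1, 12 of 24 (50%, against 25% of all genes) and none upward. The median response was -0.19 for EBC-1, 0.07 for PC-9 and 0.26 for HCC827. In EBC-1 8 members fell and 1 rose (20.9% and 24.5% of all genes), and in HCC827 11 rose and none fell (11.9% and 14.3%). MVD, the decarboxylase of the mevalonate pathway, fell in EBC-1 from 24.5, 21.2 and 22.9 to 12.19, 13.97 and 9.212 and rose in HCC827 from 34.8, 33.6 and 31.2 to 52.1, 43.9 and 43.4. MSMO1, a sterol oxidase, was opposite in each line: it fell in EBC-1 from between 18.2 and 21.8 to between 13.3 and 14.5 and rose in HCC827 from between 22.5 and 28.3 to between 41.3 and 46.7. In PC-9 the rise in MSMO1, from between 27.9 and 38.1 to between 41.9 and 50.4, had a limma adjusted p of 0.0499. HMGCS1, a synthase early in the pathway, rose in PC-9 (0.58) and in HCC827 (0.82) and was at 0.07 in EBC-1 with no call. SREBF2, the transcription factor of the pathway, fell in EBC-1 by 0.71 and was called in neither other line. The median gap between EBC-1 and the other lines was -0.73 in nc and -1.26 in shSYK cells, so this list moved apart. The SREBP motif, searched on both strands as TCAC followed after any base by CCAC, was found in 1 of the 17 promoters matched and in 0.954% of those of tested genes.

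DNA replication genes moved the other way. Of 37 members, 13 were higher in EBC-1 (35.1%, against 13.3% of all genes) and none lower, and 5 were opposite. The median response was 0.08 for EBC-1, -0.19 for PC-9 and -0.25 for HCC827, and the EBC-1 median was -0.02 where a mean FPKM of 5 was required. ORC1, the large subunit of the origin recognition complex, rose in EBC-1 from 7.88, 8.174 and 8.003 to 10.94, 11.05 and 10.46 and fell in HCC827 from 25.1, 22.62 and 23.96 to 14.96, 16.11 and 14.9. In PC-9 its groups overlapped, between 7.90 and 10.49 in nc and between 7.197 and 8.68 in shSYK cells. FEN1, the flap endonuclease of the lagging strand, and MCM4, a helicase subunit, were opposite in each line, with FEN1 at 0.30, -0.33 and -0.33 and MCM4 at 0.27, -0.33 and -0.30. GINS1, another helicase subunit, and MCM6 rose in EBC-1 and fell in the average. The list was not uniform: E2F1 and CDC45 fell in EBC-1 by 0.54 and 0.46 and their differences were not called. These are differences of less than 1 on the log2 scale in all 37 members. The E2F motif TTCCCGC was held by 45.5% of the 33 promoters matched and 11.04% of those of tested genes, and it was not found in the windows of FEN1, GINS1, MCM6 and ORC1, the opposite members with a promoter in the table.

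**Figure D4:**
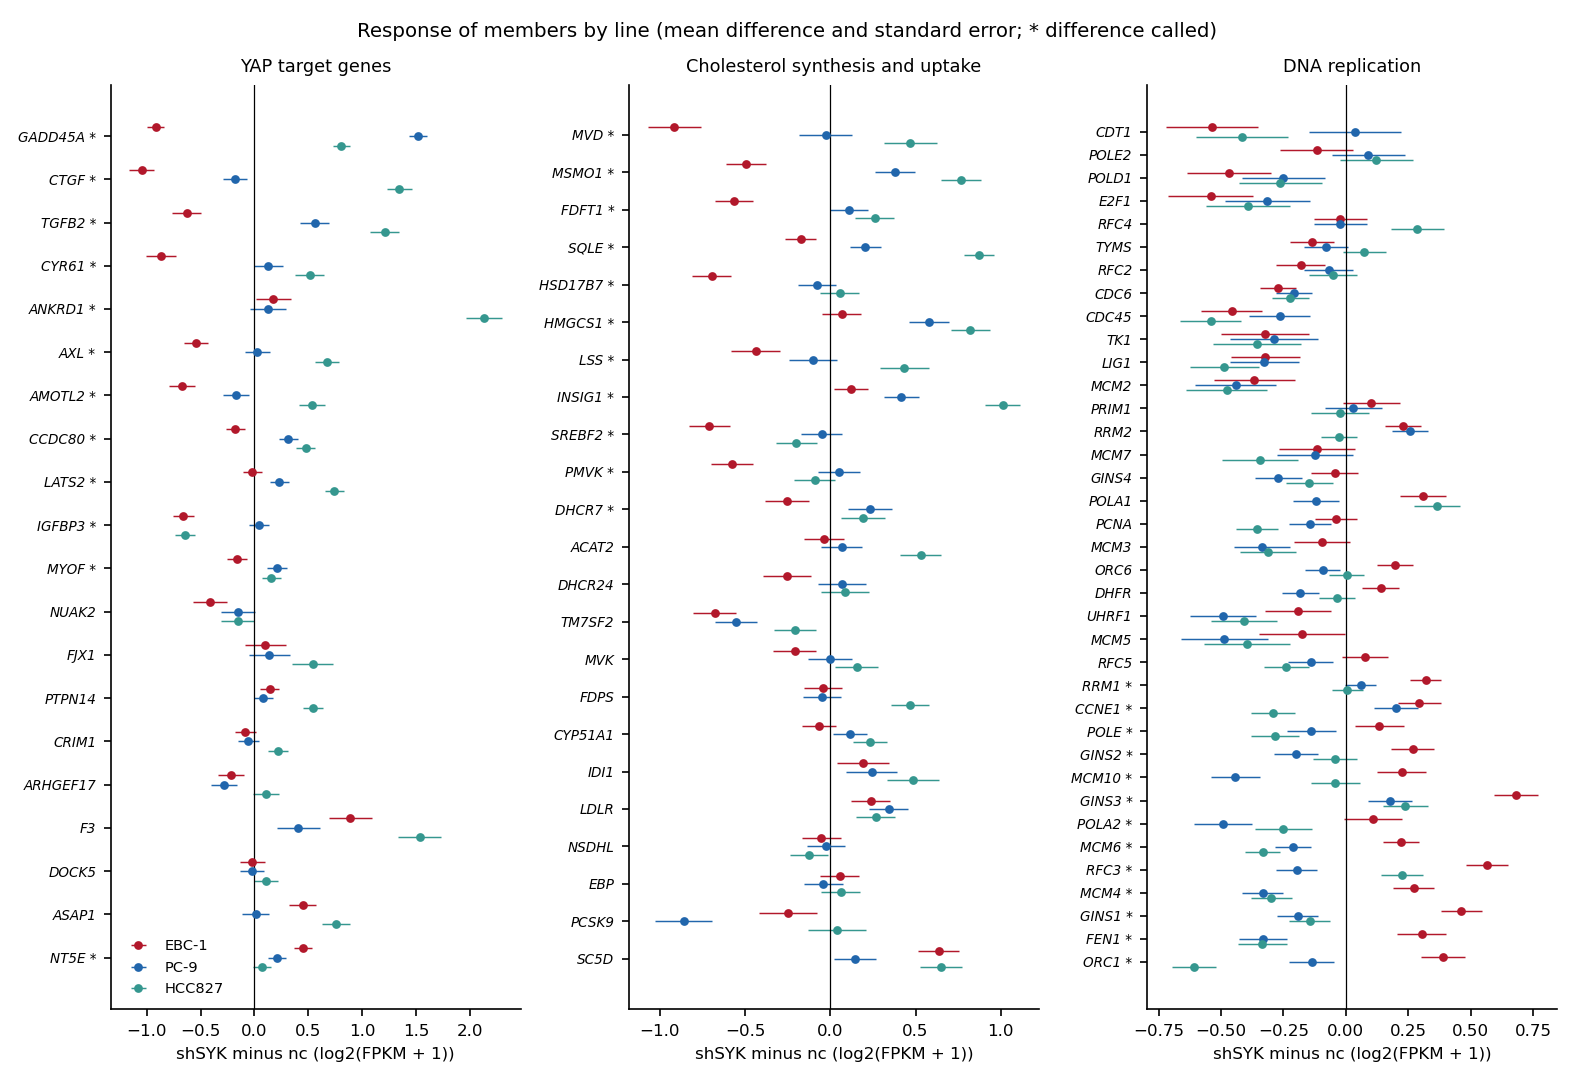
The response of tested members of the YAP target, cholesterol (1 of 24 not drawn) and DNA replication lists, as shSYK minus nc in log2(FPKM + 1). Points are EBC-1 (red), PC-9 (blue) and HCC827 (green), with 3 libraries per group. Bars are the standard error of the fit, pooled over the 6 groups and so equal in the 3 lines for a gene. An asterisk marks a called difference. For CTGF, TGFB2 and MSMO1 the red point lies below 0 and the green point above it, and for MCM4, FEN1 and ORC1 the red point lies above 0 and the others below.

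The list of keratins, cornified envelope and S100 genes had 11 of 23 members higher in EBC-1 and 2 lower (56.5%), with 4 opposite. Over all genes, 25% differed, 13.3% higher and 11.7% lower, and 2.68% were opposite. The medians were 0.30 for EBC-1, 0.02 for PC-9 and -0.37 for HCC827. Requiring a mean FPKM of 5 in each table removed members, S100A8 among them. Over those left, the EBC-1 median was 0.08 and 6 differed in place of 13, so these counts have unlike totals. S100A8, S100A9 and PI3, described above, and KRT15, a basal keratin, were the opposite members, KRT15 with responses of 0.29, -0.46 and -0.37. SPRR1B, a small proline-rich protein of the cornified envelope, was at 0, 0.255 and 0.820 in EBC-1 nc, with at most 6 reads in a library, and at 8.495, 9.789 and 16.4 in EBC-1 shSYK cells. It rose in PC-9 from 0.975, 0.416 and 0.928 to 1.67, 4.21 and 3.97 and fell in HCC827 from 10.9, 12.5 and 15.4 to 4.197, 7.886 and 8.86. The difference in SPRR1B was 3.01 (standard error 0.37), and its level in EBC-1 nc was near the floor. The members lower in EBC-1 were the hair keratin KRT81, at -3.28, -0.42 and -0.54 in the 3 lines in the same order, and KRT7, a simple epithelial keratin, at -1.34 in EBC-1 with no call in the others. The secretory gene LCN2, with a difference of 1.10, fell by 0.86 in EBC-1 and 3.04 in HCC827. Its response in PC-9 lay near that in EBC-1.

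The AP-1 motif TGANTCA was held by 37.5% of the 16 promoters matched of this list, against 4.24% of the promoters of tested genes. The window of SPRR1B, chr1:153030953-153031252 on the plus strand, is shown with its 2 matches in capitals.
SPRR1B: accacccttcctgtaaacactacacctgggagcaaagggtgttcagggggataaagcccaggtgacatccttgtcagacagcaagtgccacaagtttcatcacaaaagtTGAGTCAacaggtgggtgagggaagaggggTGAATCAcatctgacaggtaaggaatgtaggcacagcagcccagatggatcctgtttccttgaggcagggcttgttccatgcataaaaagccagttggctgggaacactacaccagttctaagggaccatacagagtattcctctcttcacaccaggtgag

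Lysosomal, collagen and antigen-presentation genes differed in part. Of 25 lysosome and autophagy genes, 11 were lower in EBC-1 and 5 higher (64%, against 25% of all genes). The median response was -0.22 for EBC-1, 0.03 for PC-9 and 0.01 for HCC827. The largest were GAA, the lysosomal alpha-glucosidase, and SQSTM1, the autophagy adaptor p62. SQSTM1 fell in EBC-1 from 307, 311 and 307 to 152, 156 and 166 and was called in neither other line. The members higher in EBC-1 included 2 subunits of the proton pump, ATP6V1A and ATP6V1H. Of 11 collagen and laminin genes, 5 were lower and 2 higher (63.6%, against 25% of all genes). With HCC827 alone as comparator, 4 differed in place of 7. The median difference of this list was -0.25, and it was 0.03 with no filter. COL18A1, the precursor of endostatin, had a difference of -0.90. COL6A1 fell in EBC-1 from between 37.97 and 45.01 to between 27.1 and 35.2 and rose in PC-9 from between 90.1 and 136 to between 185 and 214. Of 15 genes of MHC class I presentation, 5 were lower and none higher (33.3%, against 25% of all genes). Among them was HLA-B, with a difference of -0.67 that was not called against PC-9 alone (limma adjusted p = 0.109). The 5 became 2 to 8 over the alternatives, with 3 when EBC-1 shSYK replicate 1 or 3, HCC827 nc replicate 2, HCC827 shSYK replicate 2 or PC-9 shSYK replicate 2 was left out. HLA-B is polymorphic and shares sequence with related genes, so its read count is uncertain. The ISRE motif, searched on both strands as GAAA followed after any 2 bases by GAAA, was held by 69.2% of the 13 promoters matched of that list and 2.64% of those of tested genes.

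Interferon-stimulated genes, described after their values were seen, went the other way from MHC class I: 9 of 25 were higher in EBC-1 and OASL lower. That was 40% of the list, against 25% of all genes. OAS1, a synthetase that activates RNase L, rose in EBC-1 by 0.22 and fell by 0.56 and 0.50 in PC-9 and HCC827. OAS3, PARP9 and DTX3L were opposite as well. Few of the basic cellular genes differed. Among 77 cytosolic ribosomal proteins 2 differed (2.6%), and among 58 nuclear-encoded respiratory chain genes 2 (3.45%), both under the 25% of all genes. Ribosomal proteins have many processed pseudogenes, which can take part of their reads. Of 13 mitochondrially encoded proteins, 5 differed (38.5%, against 25% of all genes), each lower in EBC-1.

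**Figure D5:**
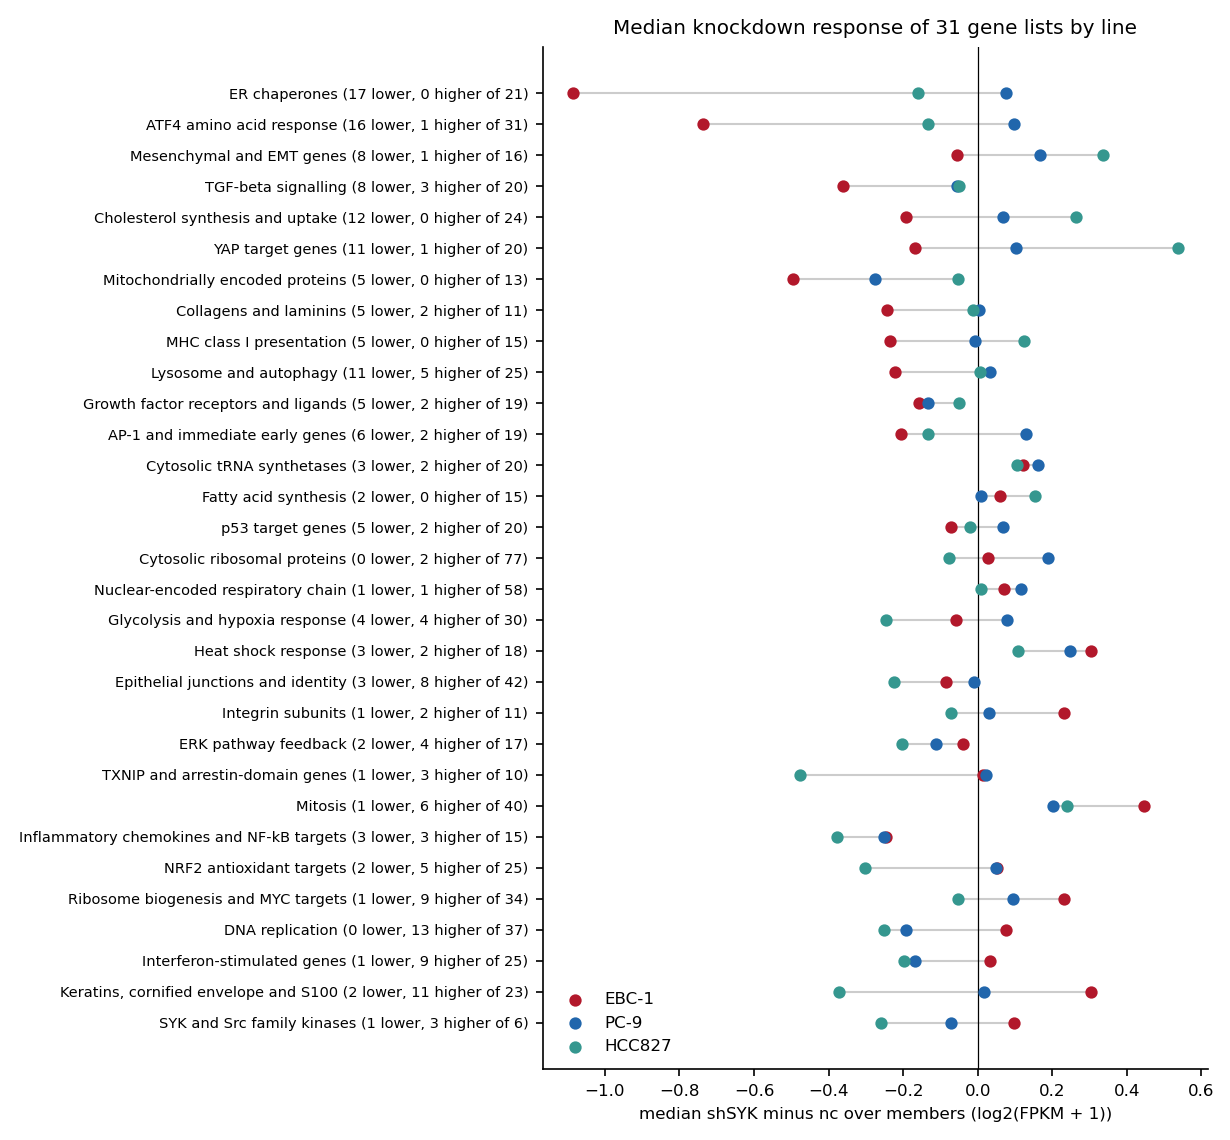
Median response over the tested members of 31 gene lists, as shSYK minus nc in log2(FPKM + 1), in EBC-1 (red), PC-9 (blue) and HCC827 (green), ordered by the median difference; brackets give how many members were called lower and higher in EBC-1 of those tested. The red point of the ER chaperones lies at -1.09 and that of the ATF4 list at -0.74, and the red point lies to the left of both others for YAP, cholesterol and mesenchymal genes and to the right for DNA replication and keratins.

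Among kinases, SRC fell in EBC-1 from 10.8, 8.32 and 10.8 to 4.38, 4.335 and 3.65 and in HCC827 from 30.5, 28.6 and 33.2 to 21.3, 20.3 and 20.7. In PC-9 it was between 7.37 and 10.99 in both groups. LYN rose in EBC-1 and PC-9 (0.62 and 0.34) and fell in HCC827 (-0.24). In the short list of SYK and Src family kinases, 3 of 6 were higher and SRC lower in EBC-1 (66.7%, against 25% of all genes). SYK itself, the target of the shRNA, was among those higher, because its fall was smaller in EBC-1. ERK feedback genes included DUSP6, the phosphatase that inactivates ERK, which was opposite in each line at 0.49, -0.44 and -0.40. MET rose in EBC-1 from 436, 531 and 438 to 588, 597 and 632 and fell in PC-9 from 7.918, 12.54 and 10.53 to 6.33, 7.47 and 7.75, with values between 81.3 and 83.7 in HCC827. Its difference of 0.61 (limma adjusted p = 0.00633) was not called against HCC827 alone. EGFR, at -0.14, and the epithelial cadherin CDH1, at 0.06, had no called difference. CDH1 fell in each line. FOSL1, which encodes FRA1, had a difference of -0.46 that was not called (limma adjusted p = 0.0888). It was called in 6 of 30 alternatives (limma adjusted p from 0.00749 to 0.25), among them without EBC-1 nc replicate 2 and without PC-9 nc replicate 1. Its response was called in none of the single lines, and in the average of PC-9 and HCC827 it was 0.34 (limma adjusted p = 0.0299).

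The genes with the largest differences called in EBC-1 and not in the average, besides DDIT3, HERPUD1, HSPA5 and SPRR1B, were TXNIP and AKR1B10. TXNIP, an inhibitor of thioredoxin and of glucose uptake, rose in EBC-1 from 4.12, 5.13 and 6.43 to 43.0, 33.9 and 47.1. It was between 219 and 262 in PC-9 and between 43.2 and 62.1 in HCC827, with no call in either, so the shSYK libraries of EBC-1 came near the level of HCC827 (difference 2.82, limma adjusted p = 1.52e-08). Of the 10 genes of the TXNIP and arrestin list, 3 were higher and 1 lower in EBC-1 (40%, against 25% of all genes). The lower one, ARRB2 or beta-arrestin 2, fell in EBC-1 and in HCC827 with a difference of -1.05. AKR1B10, an aldo-keto reductase, rose in EBC-1 from between 3.77 and 5.03 to between 17.98 and 20.1.

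Genes called in the average with no call in EBC-1 included ASS1, argininosuccinate synthase of the urea cycle, which fell in PC-9 from 135, 87.3 and 102 to 44.1, 39.5 and 42.4 and in HCC827 from 69.5, 56.6 and 90.1 to 19.4, 27.5 and 30.95. In EBC-1 its values were between 22.4 and 24.3 in nc and between 28.03 and 32.01 in shSYK cells, apart but not called (limma adjusted p = 0.0919). LFNG, a glycosyltransferase that modifies Notch, fell in PC-9 and HCC827 by 0.99 and 1.97 and was at 0.00 in EBC-1. SAA1 fell in HCC827 by 2.32. PTX3, a secreted pentraxin, and the transcription factor ETS1 rose in both EGFR-mutant lines, while the tight-junction protein CLDN1 rose in HCC827 (1.69) and was not called in PC-9 (0.28). PTX3 was between 24.9 and 32.3 in all libraries of EBC-1. In HCC827 its mean FPKM was 0.533 in nc and 3.63 in shSYK cells, so it passed the filter there only through shSYK.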

How the data were processed

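RNA of EBC-1, PC-9 and HCC827 cells with shSYK or nc was extracted with TRIzol and sequenced by Novogene on an Illumina HiSeq system. The authors deposited FPKM values per gene in 1 table per line. The submitters' processing notes name CASAVA and HISAT2 and the builds GRCh37, GRCh38, hg19 and hg38, while the paper's methods give alignment to hg38. Tool versions and the use of strand are not given in the sources used here, so overlapping and antisense genes cannot be told apart. Low values were whole multiples of the worth of 1 read (tolerance 0.02 reads), which gave the reads per library.

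From the deposited FPKM, log2(FPKM + 1) was fitted with limma 3.58.1 (R 4.3.3; 6 group means, variance trend), with Benjamini-Hochberg adjustment over the 10030 genes and two-sided tests. The spread of a gene was pooled over the 6 groups, so its standard error was equal in each line. That error does not follow the larger spread of the PC-9 nc group. The tables were scaled separately, so levels set across lines are descriptions. The members, lists and tests were chosen with earlier results of these data known. Genes were named by the size of their difference within each class (10 opposite in each direction, 5 under the stricter count, 3 for EBC-1 or the average alone, 2 per described list) with SYK, VIM, CDH1, FOSL1, MET, EGFR and AXL. Other list members were named after their values were seen, as were the ERSE, SREBP and E2F letters. Replicate numbers did not pair the libraries (correlations of deviations from -0.30 to 0.38). Promoters of 7757 tested genes were matched by symbol to RefSeq. The fit was tested on simulated data. Results for 2 list members are not reported here.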

Additional observations from a re-analysis of the deposited data

Results flagged for a closer look

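Besides the 2511 genes whose response differed between EBC-1 and the average of PC-9 and HCC827, the responses of PC-9 and HCC827 differed from each other for 512 genes (5.1%), by the interaction contrast of the same limma fit. Among the opposite genes named above, the response in PC-9 minus that in HCC827 on the log2(FPKM + 1) scale was 4.37 for S100A9, 2.14 for SPP1, 2.12 for PI3, 1.63 for SAA2, 1.44 for EGR1, 1.41 for S100A8, 1.36 for TRIB2, 0.71 for GADD45A, 0.70 for SGK1 and 0.68 for MALL. It was -1.52 for CTGF, -1.43 for LTB, -1.37 for FLNC, -0.95 for MCAM and -0.43 for KIF3C. Among the opposite members named from the lists it was 0.76 for COL6A1, 0.47 for ORC1 and -0.65 for AXL. For these genes the average of the EGFR-mutant lines covers unequal responses. Of the 269 opposite genes, 48 differed between PC-9 and HCC827 (17.8%).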

How the results depend on the processing

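Counts of genes whose response differed between EBC-1 and the average (2511), that were opposite (269) and that differed between PC-9 and HCC827 (512) moved by more than 1.5 times as follows, and the causes were not tested. With a mean FPKM of 5 required, which left 5157 genes, they were 1332, 157 and 273. With no filter, 1001 genes differed between PC-9 and HCC827, and with array weights 304. With length and GC trends removed, 506 were opposite and 1208 differed between PC-9 and HCC827. With PC-9 alone as comparator, 125 were opposite and the SYK difference of 0.44 was not called. A minimum of 1 on the log2 scale left 192 and 58. Leaving out each library gave 1847 to 3929 differing genes, 202 to 404 opposite and 299 to 1936 between PC-9 and HCC827, with SYK between 0.41 and 0.51. SYK was 0.77 by limma-voom and 0.67 with a pseudocount of 0.1, called in both. The highest counts came without PC-9 nc replicate 1. With the replicate block, for numbers that did not pair the libraries, 2123 differed, 204 were opposite and 312 differed between PC-9 and HCC827. The calls of CLDN1, HLA-B, LYN and SAA1 were lost with PC-9 alone and those of COL6A1 and MET with HCC827 alone. VIM reversed with PC-9 alone, from -0.73 to 0.026. The share of differences higher in EBC-1 was 53.1%, 69.5% on the TPM scale and 63.4% by limma-voom. Of the 269, 161 to 262 remained opposite in the alternatives that tested all of them, save 91 with PC-9 alone. With 3 libraries a group, 1 line against 2 and 1 shRNA clone, precision is limited, and S100A8 in HCC827 shSYK cells lay under 3 reads.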

Other observations

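Of 40 mitotic genes, the members that rose numbered 23 for EBC-1, 5 for PC-9 and 12 for HCC827, where 24.5%, 4.89% and 11.9% of all genes rose, with medians of 0.45, 0.20 and 0.24, and 6 differences were higher and 1 lower in EBC-1 (17.5%, against 25% of all genes). Of 34 ribosome biogenesis genes and MYC targets, 9 were higher in EBC-1 and 1, MYC itself, was lower. The share that differed, 29.4%, was near the 25% of all genes.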
